A study of Mus musculus with 5 samples.

Results

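The cornified envelope genes of the epidermal differentiation complex were measured in back skin keratinocytes of mice aged 28 days. They were taken by symbol: every gene whose name starts with Lce or Sprr, together with Lor (loricrin), Ivl, Flg, Flg2, Hrnr, Rptn, Crnn, Tchhl1, Kprp, Lelp1, Crct1, Prr9 and Smcp. This rule found 51 genes among the 56691 gene IDs counted, and the annotation places all 51 on chromosome 3. They are 14 Lce1 genes, 6 Lce3 genes, Lce6a, 2 Sprr1 genes, 13 Sprr2 genes, Sprr3, Sprr4, the 6 fused S100 genes Flg, Flg2, Hrnr, Rptn, Crnn and Tchhl1, the pair Lor and Ivl, and 5 others. RNA sequencing libraries were made from total RNA of 2 kinds of cells. The 2 bulk libraries hold the entire population, labelled as wild-type basal keratinocytes, and the 3 GFP libraries hold cells sorted for GFP, labelled as Lrig1 positive epidermal stem cells. The sources used here do not give the reporter allele, its promoter, the strain, the sorting gates or whether a library pools animals. Lrig1, a marker of stem cells near the top of the hair follicle, encodes a transmembrane inhibitor of growth factor receptors.

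As keratinocytes leave the basal layer and mature, they build the cornified envelope, a sheet of cross-linked protein that replaces the plasma membrane of the dead outermost cells. Involucrin and the small proline-rich (SPRR) proteins are among its early precursors, loricrin is its main bulk protein in the epidermis, and late cornified envelope (LCE) proteins are added near the end. Filaggrin, of the fused S100 family, is a large repeat protein of the granular layer. The longest annotated transcripts of the 6 fused S100 genes run from 1863 to 20803 bases. The genes of all these proteins lie side by side in a cluster whose members are switched on during terminal differentiation.

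The DNA just upstream of the genes is shown for 6 members that stand for the different patterns described next: Sprr1a, Sprr1b and Ivl, which were not called different, and Lor, Flg2 and Lce1m, which were called lower in GFP libraries. Each line gives the 250 bases before the annotated start, 5′ to 3′ on the gene's strand, from RefSeq on GRCm38.p6. Capitals mark TATAA and the AP-1 type motif TGANTCA, found on either strand. In this motif N stands for any base. The Sprr1b and Flg2 matches read TGAATCA, and the other TGANTCA matches shown read TGAGTCA or TGACTCA.
Sprr1a (chr3:92485882-92486131, minus strand): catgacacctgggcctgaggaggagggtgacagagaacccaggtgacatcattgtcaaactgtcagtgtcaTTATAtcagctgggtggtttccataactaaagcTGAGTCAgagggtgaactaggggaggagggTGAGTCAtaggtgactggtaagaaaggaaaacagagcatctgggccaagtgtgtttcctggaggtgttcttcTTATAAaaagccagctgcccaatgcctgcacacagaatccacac
Sprr1b (chr3:92438780-92439029, minus strand): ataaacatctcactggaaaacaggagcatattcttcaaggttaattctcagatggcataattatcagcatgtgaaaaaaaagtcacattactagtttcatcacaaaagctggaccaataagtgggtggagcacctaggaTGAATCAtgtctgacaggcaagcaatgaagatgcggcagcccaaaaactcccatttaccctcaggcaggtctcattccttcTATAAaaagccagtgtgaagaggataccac
Ivl (chr3:92573736-92573985, minus strand): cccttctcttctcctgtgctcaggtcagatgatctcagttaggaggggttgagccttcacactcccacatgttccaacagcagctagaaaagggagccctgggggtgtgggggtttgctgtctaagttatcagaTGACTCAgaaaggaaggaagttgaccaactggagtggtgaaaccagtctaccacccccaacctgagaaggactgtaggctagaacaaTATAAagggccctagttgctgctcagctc
Lor (chr3:92083143-92083392, minus strand): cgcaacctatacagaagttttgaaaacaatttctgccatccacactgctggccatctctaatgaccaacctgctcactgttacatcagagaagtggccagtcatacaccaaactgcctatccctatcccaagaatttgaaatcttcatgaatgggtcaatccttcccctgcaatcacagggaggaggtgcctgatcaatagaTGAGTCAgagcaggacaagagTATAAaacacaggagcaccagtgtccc
Flg2 (chr3:93197023-93197272, plus strand): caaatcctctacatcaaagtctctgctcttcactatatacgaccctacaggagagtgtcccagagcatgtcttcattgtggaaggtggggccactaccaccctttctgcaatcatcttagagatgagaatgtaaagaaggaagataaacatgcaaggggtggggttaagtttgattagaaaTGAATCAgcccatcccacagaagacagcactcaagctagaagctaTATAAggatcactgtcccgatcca
Lce1m (chr3:93019062-93019311, minus strand): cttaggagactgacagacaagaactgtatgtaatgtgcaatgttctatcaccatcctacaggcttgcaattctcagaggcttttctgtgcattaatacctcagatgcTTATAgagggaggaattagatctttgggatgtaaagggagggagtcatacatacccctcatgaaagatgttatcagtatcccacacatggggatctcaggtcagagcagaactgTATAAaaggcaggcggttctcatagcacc

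A sequence of this kind was found for 45 of the 51 members. TGANTCA was present in 17 of the 45 (37.8%), against 6.73% of 32536 mouse promoters of the same length. It was present in both Sprr1 promoters, in 7 of 10 Sprr2 promoters, in 5 of 6 fused S100 promoters and in those of Lor and Ivl. The fused S100 matches read TGAATCA or TGATTCA. None of the 13 Lce1 and 6 Lce3 promoters held it. In the 7 Sprr2 promoters its nearest match began 182 to 198 bases before the start. The Sprr2a1 and Sprr2a2 sequences are identical, and repeated sequences were dropped only from the set of all promoters. The member promoters are therefore not independent of each other, which limits each comparison of shares here. TATAA was present in 26 of 45 members (57.8%) against 22.7% of all promoters, and in 18 members its nearest match began 20 to 40 bases before the start. The longer TATAAA, each match of which contains a TATAA, was present in 46.7% of members against 12.3% of all promoters. No TATAA match overlapped a TGANTCA match. The other 4 motifs searched on both strands were CCAAT (22.2% of members, 33.8% of all promoters), GGAAG (66.7% and 64.1%), CACCC (42.2% and 52.1%) and CANNTG (71.1% and 66.2%). The Sprr1a sequence holds 2 TGANTCA matches and the Lce1m sequence holds none. These matches are letters in a window and say nothing of binding, and genes on both sides of the test below carry them.

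Library totals ran from 56829330 to 105887450 counts. GFP 3 stood apart from the other 4 libraries in sex-linked genes. It had 53714 counts of Xist, which is transcribed from the inactive X chromosome of females, against 0 to 8 in the others, and 62 counts of the Y-linked Ddx3y against 1750 to 4462. Cells named by their labels as basal were checked against basal keratins: Krt14 stood at 5452 and 6297 CPM (counts scaled to a common library size with TMM factors) in bulk libraries and at 13024, 11037 and 9491 CPM in GFP libraries. Krt10, the keratin of the first layers above the basal layer, was also abundant in all 5 libraries, at 13533 and 9709 CPM in bulk and 4724, 7176 and 5255 CPM in GFP libraries. Lrig1 itself stood at 163 and 155 CPM in bulk and 210, 226 and 213 CPM in GFP libraries (adjusted p = 0.292, edgeR quasi-likelihood test). The GFP values all lay above the bulk values, and Lrig1 passed with the replicate block described below (adjusted p = 0.00676). In bulk cell populations, fewer cells of a type and less RNA per cell cannot be told apart.

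Of the 51 members, 47 had at least 1 count, and Lelp1, Sprr2b, Sprr2c-ps and Sprr3 had none in any library. The 33 members that passed the filter on low counts were tested for a difference between GFP and bulk libraries. At an adjusted p below 0.05 in edgeR, 19 of the 33 were lower in GFP libraries and 0 were higher. Over all 18583 genes tested, 5.14% were lower and 0.145% were higher. No member was called higher by DESeq2, limma-voom or edgeR without a replicate block, and 1 (Sprr2a3) had an unadjusted edgeR p below the threshold. The median log2 fold change (GFP over bulk) was -3.54 over the tested members and 0.05 over all tested genes. The filter bears on these figures: 11 of the 33 reached its level in bulk libraries without reaching it in at least 2 GFP libraries, and 5 of those were called lower. Among the other 22, which reached it in GFP libraries, 14 were called lower and 8 were not called. In 27 of the 33, all 3 GFP libraries lay below both bulk libraries, an order seen in 18.5% of all tested genes. Of the 11 members that passed the filter through bulk libraries, all but Smcp showed it, and passing in that way favours this order. In Sprr2a3 all 3 GFP libraries lay above both bulk libraries, which 14.6% of tested genes showed. Without bulk 1, 10 of 36 tested members were called lower (516 of 19730 genes in all), and without GFP 3, 23 of 33 were (1109 of 17834 genes). Bulk 1 has the title number of GFP 1, and bulk 2 that of GFP 2. With this number as a replicate block, 27 were lower and 1 was higher, where 19.7% and 16.4% of all genes were called. GFP 3 has a title number of its own, so its values do not enter the group difference in that fit.

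**Figure D1:**
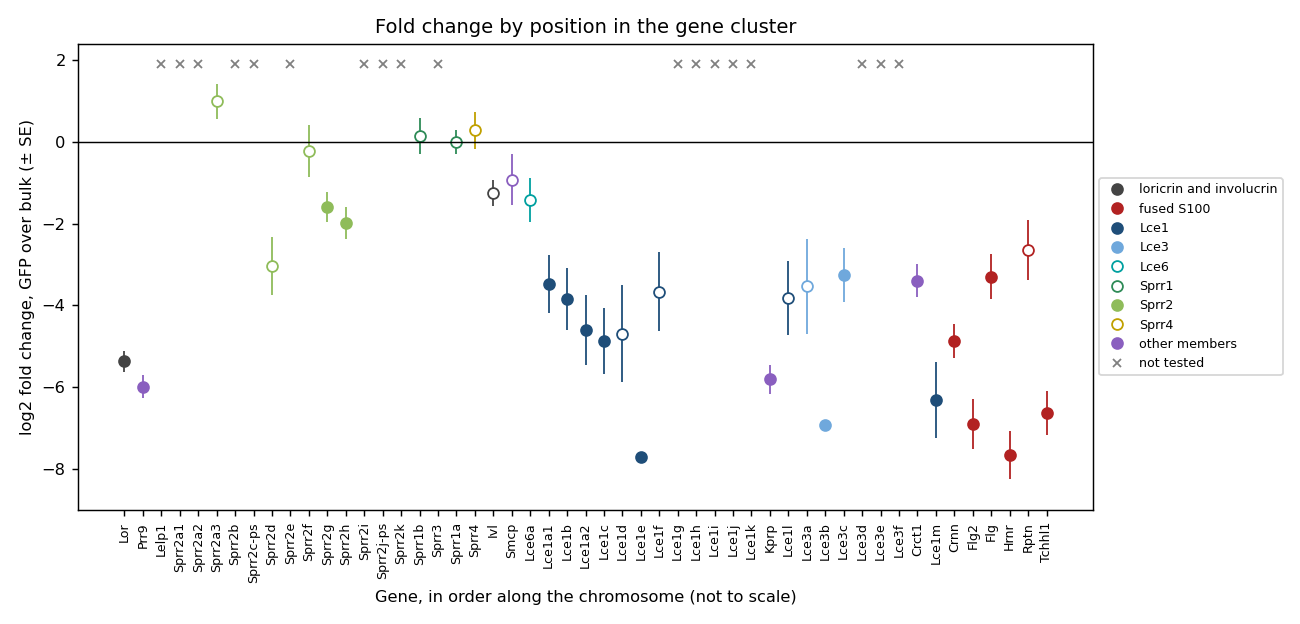
Log2 fold change (GFP over bulk, bars ± SE from edgeR) of the 33 tested members, placed in their order along chromosome 3 and coloured by subfamily; filled circles passed the test, open circles did not, and grey crosses at the top are members not tested. Lce1e and Lce3b have no counts in GFP libraries, so their positions depend on the model's prior count and carry no bar. The Sprr1 genes and Sprr4 lie at 0.00 to 0.29, while Lor at one end and the fused S100 genes at the other lie at -2.65 or below.

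Loricrin, the main structural protein of the envelope, was lower in GFP libraries by a wide margin. Lor (ENSMUSG00000043165.8) stood at 286 and 183 CPM in bulk libraries and at 5.80, 5.07 and 6.11 CPM in GFP libraries. The 3 GFP values lay close together, far below both bulk values. The log2 fold change was -5.37 ± 0.26 (adjusted p = 5.3e-05, edgeR), a 41.5-fold lower mean. Involucrin, a rod-shaped early scaffold protein, differed much less. Ivl (ENSMUSG00000049128.8) stood at 158 and 69.8 CPM in bulk libraries and at 49.1, 42.4 and 52.0 CPM in GFP libraries. All GFP values were below both bulk values, but the bulk values themselves were far apart. Its log2 fold change of -1.25 ± 0.32 (95% interval -1.98 to -0.52) did not pass the edgeR test after adjustment (adjusted p = 0.0693), and it passed with the replicate block (adjusted p = 4.41e-15, on 1 residual degree of freedom). The relation of these genes to each other, taken within each library, turned over. On the log2 scale Lor exceeded Ivl by 0.85 and 1.39 in bulk libraries and was below it by a difference of -3.08, -3.07 and -3.09 in GFP libraries.

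The SPRR1 proteins are short, proline-rich cross-bridging proteins of the envelope, and their genes were not called different. Sprr1a (ENSMUSG00000050359.8), the most abundant member, stood at 846 and 928 CPM in bulk libraries and at 953, 1105 and 611 CPM in GFP libraries. The GFP values fell on both sides of the bulk values. Its log2 fold change was 0.00 ± 0.29, with a 95% interval of -0.68 to 0.68 (adjusted p = 0.997, edgeR), so a change within that interval was not resolved. Sprr1b stood at 36.5 and 14.3 CPM in bulk libraries and at 32.9, 16.3 and 35.1 CPM in GFP libraries. The groups overlapped fully (log2 fold change 0.15 ± 0.44, 95% interval -0.87 to 1.17). Sprr4, a further small proline-rich gene beside them, stood at 13.9 and 6.60 CPM in bulk libraries and at 16.02, 6.29 and 15.1 CPM in GFP libraries (log2 fold change 0.29 ± 0.45). In Sprr1b and Sprr4 alike, bulk 2 and GFP 2 were the low libraries, and these share a title number. Per kilobase of the longest annotated transcript, Sprr1a had a mean level of 1101 CPM per kilobase in bulk and 1104 in GFP libraries, against 132 and 3.18 for Lor. Sprr1a alone supplied 50.5% and 63.8% of all member counts in bulk libraries and 89.0%, 93.0% and 82.9% in GFP libraries. Over the other 50 members together, the summed level was 830 and 526 CPM in bulk libraries and 118, 82.8 and 126 CPM in GFP libraries.

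**Figure D2:**
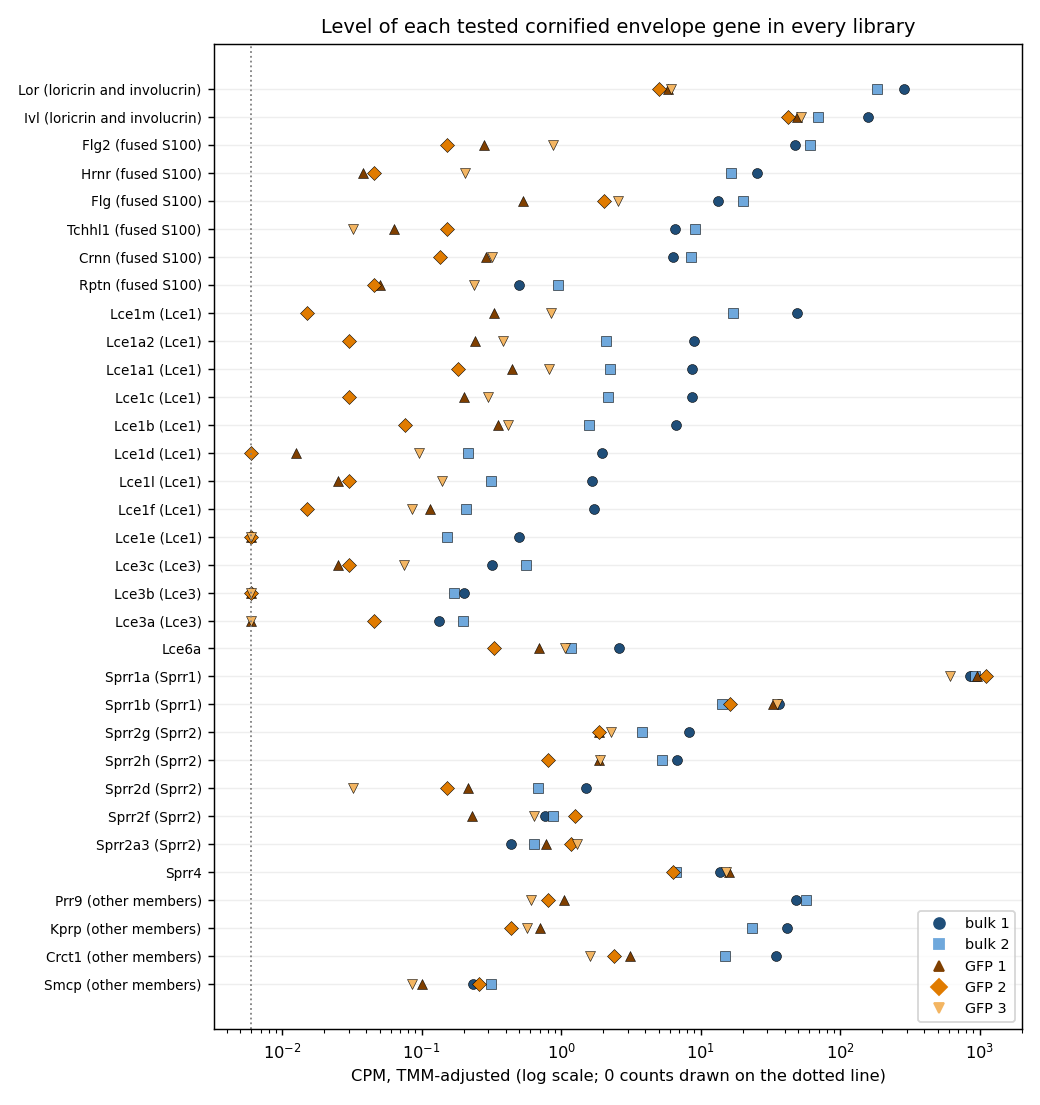
Level of each of the 33 tested members in every library (CPM on a log axis, TMM-adjusted), with 1 symbol per library, bulk in blue and GFP in brown and orange, grouped by subfamily; libraries with 0 counts are drawn on the dotted line. The GFP symbols of Lor (5.07 to 6.11 CPM), Hrnr and Tchhl1 lie far left of the bulk symbols, and those of Sprr1a (611 to 1105 CPM) enclose them.

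The Sprr2 genes, a set of close relatives whose proteins have the same cross-bridging role, did not all move alike. RefSeq lists Sprr2g and Sprr2j-ps as transcribed pseudogenes and Sprr2c-ps as a pseudogene, so no protein role is claimed for them. Of 13 members, 5 were tested and 2 were called lower. Sprr2h stood at 6.75 and 5.29 CPM in bulk libraries and at 1.86, 0.799 and 1.896 CPM in GFP libraries (log2 fold change -1.98 ± 0.40, adjusted p = 0.0284 in edgeR), and its call was lost without either bulk library and against a 1.5-fold change. Sprr2g stood at 8.26 and 3.81 CPM in bulk libraries and at 1.87, 1.87 and 2.26 CPM in GFP libraries (log2 fold change -1.59 ± 0.36, adjusted p = 0.0458). The Sprr2g call was lost in 6 of 17 alternative settings: limma-voom, a 1 CPM minimum, a 1.5-fold null, and without bulk 1 (log2 fold change -0.93), GFP 1 or GFP 2. In both genes every GFP value was below both bulk values. Sprr2d narrowly missed the threshold, at 1.505 and 0.682 CPM in bulk and 0.215, 0.151 and 0.0321 CPM in GFP libraries (log2 fold change -3.04 ± 0.71, adjusted p = 0.0503), and passed with the replicate block (adjusted p = 1.03e-07). Sprr2a3 lay the other way, at 0.435 and 0.637 CPM in bulk and 0.773, 1.18 and 1.30 CPM in GFP libraries. Its log2 fold change of 1.002 ± 0.43 did not pass the test (adjusted p = 0.308), and it passed with the replicate block (adjusted p = 0.0330). Sprr2f overlapped between groups, with GFP libraries at 0.228, 1.25 and 0.643 CPM around bulk values of 0.769 and 0.870 CPM. Of the 8 Sprr2 genes not tested, Sprr2i had 2 and 24 counts in bulk and 0 in all GFP libraries, at least 12.1-fold lower when a floor of 3 counts is set over the GFP group. Sprr2a1, Sprr2a2, Sprr2e, Sprr2j-ps and Sprr2k had between 0 and 13 counts in each library. Reads of near-identical copies may have been divided among them: 96.3% of the 50-base windows of Sprr2a1, 96.5% of those of Sprr2a2 and 61.1% of those of Sprr2a3 also occur in another gene. Summed over all 13 genes, Sprr2 stood at 18.0 and 11.7 CPM in bulk and 5.27, 5.44 and 6.32 CPM in GFP libraries. The sum does not depend on that division among them, but it would miss reads left uncounted because they match several genes. The total was lower by a log2 fold change of -1.39 ± 0.25 (adjusted p = 0.0181, edgeR), and it did not pass without bulk 1, GFP 1 or GFP 2.

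The Lce1 genes encode small glycine- and cysteine-rich proteins laid down late in envelope assembly, and their summed level in GFP libraries was a small part of that in bulk libraries. Of 14 members, 9 were tested, all 9 had every GFP value below both bulk values, and 6 were called lower. Lce1d, Lce1e, Lce1f and Lce1l passed the filter through bulk libraries alone, which favours that order. Lce1m was the most abundant, at 48.8 and 17.1 CPM in bulk libraries and at 0.329, 0.0151 and 0.846 CPM in GFP libraries. GFP 2 held 1 count of it, where the bulk libraries held 2920 and 1910 counts. Its log2 fold change was -6.31 ± 0.93 (adjusted p = 0.00673, edgeR). Lce1c stood at 8.69 and 2.17 CPM in bulk libraries and at 0.203, 0.0302 and 0.300 CPM in GFP libraries (log2 fold change -4.88 ± 0.81). Lce1a2 (-4.61 ± 0.86), Lce1b (-3.83 ± 0.76) and Lce1a1 (-3.48 ± 0.70) were also called lower. These 3 calls were lost without bulk 1 and without GFP 1, and those of Lce1b and Lce1a1 also with limma-voom. Without bulk 1, where the call of Lce1c was lost too, the log2 fold changes were -3.57 for Lce1c, -3.23 for Lce1a2, -2.47 for Lce1b and -2.20 for Lce1a1. Lce1e had 30 and 17 counts in bulk and 0 in each GFP library, at least 21.8-fold lower with 3 counts over the GFP group as the floor, and its call was lost without either bulk library. Lce1d (adjusted p = 0.0665), Lce1f (0.0796) and Lce1l (0.0532) missed the edgeR threshold and passed it with the replicate block. Of those not tested, Lce1g, Lce1h, Lce1i, Lce1j and Lce1k had 0 to 39 counts in bulk and 0 to 4 in GFP libraries. Windows of 50 bases shared with another gene made up a median of 21.7% of an Lce1 transcript, so the total was fitted as well. The Lce1 total stood at 89.3 and 26.4 CPM in bulk libraries and at 1.72, 0.377 and 3.19 CPM in GFP libraries. It was lower by a log2 fold change of -5.02 ± 0.80 (adjusted p = 0.00958, edgeR), and leaving out a library gave values from -3.89 (without bulk 1) to -5.76 (without GFP 3), each past the threshold.

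The Lce3 and Lce6 genes were rare in both kinds of cells. The tested Lce3 genes (Lce3a, Lce3b and Lce3c) passed the filter through bulk libraries alone, which favours lower GFP values among them. Lce3 genes are known for their response to skin injury and inflammation. Lce3c had 19 and 62 counts in bulk libraries and 2, 2 and 7 counts in GFP libraries (log2 fold change -3.25 ± 0.65, adjusted p = 0.0261, edgeR), and its call was lost without bulk 1, bulk 2, GFP 1 or GFP 2. Lce3b had 12 and 19 counts in bulk and 0 in each GFP library, at least 14.4-fold lower by the same floor, and its call was lost without bulk 1. Lce3a, with 8 and 22 counts in bulk and 0, 3 and 0 in GFP libraries, was not called (adjusted p = 0.149), but passed with the replicate block (adjusted p = 0.0132). Lce3d, Lce3e and Lce3f had at most 14 counts in any library and were not tested. The Lce3 total was lower by a log2 fold change of -2.99 ± 0.53 (adjusted p = 0.0158), and it did not pass without either bulk library. Lce6a stood at 2.61 and 1.18 CPM in bulk libraries and at 0.697, 0.332 and 1.07 CPM in GFP libraries (log2 fold change -1.42 ± 0.55, adjusted p = 0.255), and it passed with the replicate block (adjusted p = 3.85e-08).

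**Figure D3:**
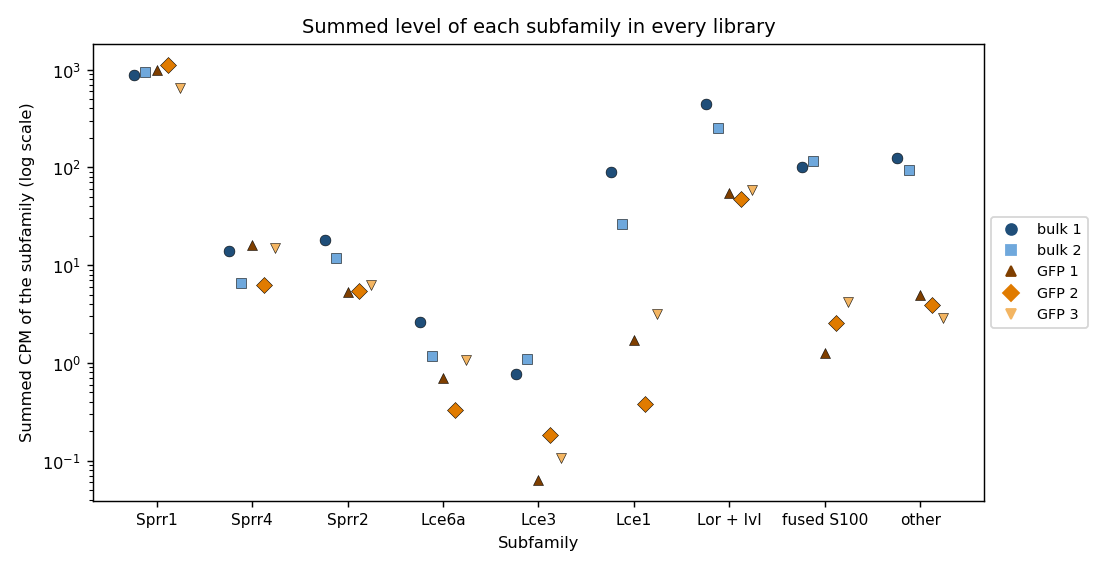
Summed CPM of each subfamily in every library (log axis), with blue symbols for the 2 bulk and brown to orange symbols for the 3 GFP libraries. The Sprr1 sums of the groups overlap (883 and 943 CPM in bulk, 646 to 1121 CPM in GFP), and the Lce1 sums (89.3 and 26.4 against 0.377 to 3.19 CPM) and fused S100 sums do not.

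The fused S100 genes combine a calcium-binding S100 head with repeats, and 5 of the 6 were called lower. Hrnr, Tchhl1 and Rptn passed the filter through bulk libraries alone, which favours lower GFP values among them. Hrnr (hornerin, a filaggrin relative) showed the largest fold change among members with counts in every library. It stood at 25.4 and 16.4 CPM in bulk libraries and at 0.0380, 0.0452 and 0.204 CPM in GFP libraries, where it had 3, 3 and 19 counts. The log2 fold change was -7.67 ± 0.59 (adjusted p = 0.000396, edgeR). Flg2 (filaggrin 2) stood at 47.8 and 61.2 CPM in bulk libraries and at 0.279, 0.151 and 0.878 CPM in GFP libraries (log2 fold change -6.92 ± 0.61, adjusted p = 0.000675). Tchhl1, a relative of trichohyalin, stood at 6.59 and 9.17 CPM in bulk and at 0.0633, 0.151 and 0.0321 CPM in GFP libraries (log2 fold change -6.63 ± 0.54). In these 3 genes every GFP value was far below both bulk values. Crnn (cornulin) stood at 6.29 and 8.58 CPM in bulk libraries and at 0.291, 0.136 and 0.321 CPM in GFP libraries (log2 fold change -4.87 ± 0.41). Flg (filaggrin), which bundles keratin filaments and is later broken down into moisture-holding amino acids, had a smaller fold change than the other 4 called genes. It stood at 13.3 and 20.1 CPM in bulk and at 0.532, 2.02 and 2.55 CPM in GFP libraries (log2 fold change -3.29 ± 0.56, adjusted p = 0.0128), and its call was lost without bulk 2. Rptn (repetin) stood at 0.502 and 0.942 CPM in bulk and at 0.0507, 0.0452 and 0.236 CPM in GFP libraries, and was not called (adjusted p = 0.0958), but passed with the replicate block.

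Among the remaining members, 3 of the 4 tested were called lower. Prr9, a proline-rich gene next to Lor, stood at 48.0 and 56.6 CPM in bulk libraries and at 1.05, 0.799 and 0.611 CPM in GFP libraries (log2 fold change -5.99 ± 0.29, adjusted p = 5.3e-05, edgeR). Kprp, which encodes a keratinocyte proline-rich protein, stood at 41.3 and 23.2 CPM in bulk and at 0.709, 0.437 and 0.568 CPM in GFP libraries (log2 fold change -5.81 ± 0.35). Both had tight GFP values far below the bulk values. Crct1, a cysteine-rich gene between the Lce3 genes and Lce1m, stood at 34.8 and 14.9 CPM in bulk and at 3.10, 2.398 and 1.61 CPM in GFP libraries (log2 fold change -3.39 ± 0.41, adjusted p = 0.00269). Smcp, best known from sperm mitochondria, had 8 to 35 counts in each library and overlapped between groups (log2 fold change -0.92 ± 0.63). Of the 19 members called lower, 9 were called under each of the 17 alternative settings run: Lor, Prr9, Kprp, Crct1, Lce1m, Crnn, Flg2, Hrnr and Tchhl1.

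Levels were also set against Krt10 in the same library, as a description without a test. On the log2 scale Lor stood at -5.56 and -5.73 relative to Krt10 in bulk libraries and at -9.67, -10.47 and -9.75 in GFP libraries. Hrnr stood at -9.06 and -9.21 in bulk and at -16.92, -17.28 and -14.66 in GFP libraries. Ivl overlapped between groups, at -6.42 and -7.12 in bulk and -6.59, -7.40 and -6.66 in GFP libraries. Sprr1a stood higher relative to Krt10 in GFP libraries (-2.31, -2.70 and -3.10) than in bulk libraries (-3.999 and -3.39). Sprr2a3 did too, at -14.93 and -13.90 in bulk and -12.58, -12.58 and -11.99 in GFP libraries. So did the basal keratins Krt14 and Krt5, which are not members, and Krt10 itself was lower in each GFP library than in either bulk library. Sprr1b, Sprr4, Lce6a and Sprr2g overlapped between groups relative to Krt10, the last although its own level was called lower. Taken against each other, Sprr1a exceeded Lor by 1.56 and 2.34 in bulk libraries and by 7.36, 7.77 and 6.64 in GFP libraries on the log2 scale.

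**Figure D4:**
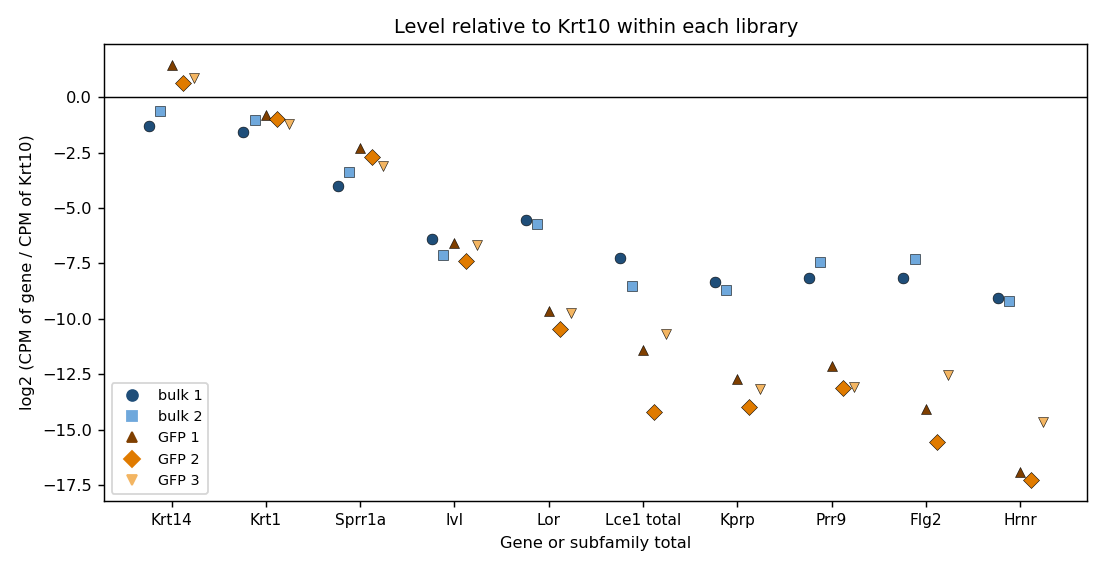
Log2 ratio of each gene's CPM to that of Krt10 within the same library, for basal Krt14, suprabasal Krt1, 7 members and the Lce1 total; blue symbols are bulk and brown to orange symbols are GFP libraries. Krt1 and Ivl overlap between groups. Krt14 and Sprr1a are higher in GFP libraries (Sprr1a -3.10 to -2.31 against -3.999 and -3.39), and Lor and the genes to its right are lower.

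The bulk libraries differed from each other in a way that followed the subfamilies. All 9 tested Lce1 genes were higher in bulk 1 than in bulk 2, by a log2 difference of 1.51 to 3.18 (median 2.07). Of the 6 fused S100 genes, 1 was higher in bulk 1, and the median log2 difference was -0.46. Bulk 1 over bulk 2 fell with transcript length, with a Spearman rho of -0.35 across the 33 members and -0.23 across 18075 genes, values that share the same 2 libraries. The Lce1 transcripts have a median length of 709 bases and the fused S100 transcripts one of 7667 bases. Other members did not follow this order of length. The Lce3 transcripts have a median of 564.5 bases, yet 1 of the 3 tested was higher in bulk 1 (median log2 difference -0.56). Hrnr, at 11187 bases, was the fused S100 gene higher in bulk 1 (log2 difference 0.63). How far length has a part in the difference between the bulk libraries was not tested. With a trend on length and GC content removed, 20 members were called lower and 0 higher (971 and 70 of 18107 genes), and with the replicate block in the same fit 27 were lower and 1 was higher (16.9% and 15.8% of all genes).

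**Figure D5:**
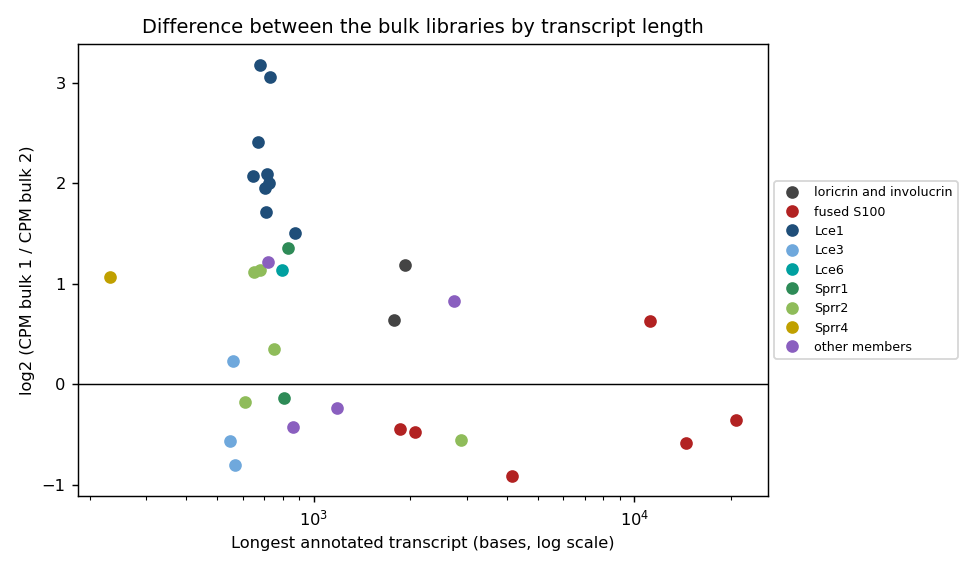
Log2 ratio of CPM in bulk 1 to bulk 2 for the 33 tested members, against the length of the longest annotated transcript (bases, log axis), coloured by subfamily. All 9 Lce1 genes lie above 1.5, and 5 of the 6 fused S100 genes lie below 0. Of the 3 Lce3 genes, 1 lies above 0.

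Genes that work with these members were read from lists of partners. Over all tested genes, edgeR called 5.14% lower and 0.145% higher, and 19.7% and 16.4% with the replicate block. Of 18583 genes, DESeq2 called 1310 lower and 188 higher, and limma-voom 989 and 37. Without GFP 1, edgeR called 748 of 18095 genes lower, and without GFP 2, 715 of 18380. The share of all genes at an unadjusted p below the threshold is not given, so such counts here and in the next paragraph stand without it. Of 12 envelope proteins and cross-linking enzymes outside the set, 6 were called lower and 0 higher in edgeR. With the replicate block 8 were lower and 2 higher, and DESeq2 and limma-voom each called 1 higher. Those called lower include Tchh, Tgm1, the membrane-bound transglutaminase that ties envelope proteins together (57.2 and 55.8 CPM in bulk, 13.04, 15.3 and 16.6 CPM in GFP libraries, adjusted p = 0.00104, edgeR), and Cnfn, cornifelin (log2 fold change -5.02 ± 0.24). Serpinb2, a protease inhibitor named here after its values were seen, lay the other way at 1887 and 1518 CPM in bulk and 3576, 3570 and 3525 CPM in GFP libraries. It did not pass in edgeR (log2 fold change 1.06 ± 0.27, adjusted p = 0.0722) and passed with the replicate block (adjusted p = 1.91e-08). Of 10 enzymes that make or attach envelope lipids, 5 were lower and 0 higher, among them Alox12b (-2.75 ± 0.29) and Sdr9c7 (-4.70 ± 0.39). Fewer of the 10 were lower without bulk 1 or bulk 2, 3 without GFP 1, and 8 with the replicate block. Of 17 suprabasal and corneodesmosome genes, 7 were lower and 0 higher in edgeR, among them Cdsn, corneodesmosin (-3.74 ± 0.33), and Dsc1 (-2.14 ± 0.20). This count was 3 without GFP 1, 4 without GFP 2, and 15 lower and 1 higher with the replicate block. It also fell without bulk 1 or bulk 2. Krt10 (-1.02, adjusted p = 0.174) and Krt1 (-0.70, adjusted p = 0.313) did not pass without the replicate block. Of 20 transcription factors and other regulators of the cluster, 0 were called by edgeR or limma-voom and 1 by DESeq2. In edgeR 6 had an unadjusted p below the threshold, and with the replicate block 2 were lower and 7 higher. The smallest p among them belonged to Nfe2l2, at 135 and 96.5 CPM in bulk and 184, 171 and 204 CPM in GFP libraries (adjusted p = 0.158, and 7.7e-05 with the replicate block). Of 15 tested neighbours in the cluster, mostly small S100 genes, 2 were lower (S100a3 and Tchh) and 0 higher in edgeR, where 7 had an unadjusted p below the threshold. DESeq2 called 4 lower and 1 higher, limma-voom 3 and 1, and edgeR with the replicate block 4 and 8. Of 12 basal layer genes, 0 were called by edgeR or limma-voom and 2 were higher by DESeq2. In edgeR 5 had an unadjusted p below the threshold, and 8 were higher with the replicate block.

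Markers of several other skin cells were also lower in GFP libraries. All 17 tested markers of hair matrix, hair shaft and inner root sheath were lower in GFP libraries, with a summed level of 1968 to 3540 CPM in bulk and 65.0 to 70.3 CPM in GFP libraries. All 5 red cell genes and all 8 immune genes were lower (summed immune level 310 to 318 CPM in bulk, 21.7 to 47.4 CPM in GFP libraries), as were 7 of 8 melanocyte genes (121 to 289 CPM and 10.7 to 17.4 CPM). Of 11 sebaceous gland genes 3 were lower (1 without bulk 1), and of 9 upper follicle genes 0 were called by edgeR (3 at an unadjusted p below the threshold) or limma-voom, 1 was higher by DESeq2 and 8 were higher with the replicate block. No gene of these lists was at 0 in all GFP libraries, and Sox10 of the melanocyte list was at 0 in 2 of the 3. The hair list and the partner lists share Tchh, which hair and inner root sheath cells also make. Bulk 2 held the higher hair sum and the lower Lce1 sum, so these sums did not rank the bulk libraries alike. The part of these other cells in the members' differences was not tested.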

How the data were processed

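The values are raw whole-number counts for each Ensembl mouse gene ID, deposited without normalization and made by the authors with STAR on GRCm39, per the submitters' processing notes. The sources used here do not give versions, the counting tool, the annotation, strandedness or how reads matching several genes were treated, so antisense and near-identical genes are uncertain. The 2 bulk and 3 GFP libraries were grouped by their labels. Members and gene lists were chosen with earlier results of these data known, and every tested member is named, with partner genes named from the 4 smallest p of each list, Krt10, Krt1, Krt14 and Lrig1 as references, and Serpinb2 after its values were seen. Symbols and lengths came from GENCODE M21 (GRCm38) by ID: 52073 of 56691 matched a symbol. The order along the chromosome came from RefSeq, matched by symbol.

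Counts passing filterByExpr (minimum count 10, minimum total 15) were fitted with edgeR 4.0.16 in R 4.3.3: TMM scaling, a group term, the two-sided quasi-likelihood test with 3 residual degrees of freedom, and Benjamini-Hochberg adjustment over all genes at 0.05. Levels are CPM, and errors of fold changes are SE. Subfamily totals were refitted on the whole table. The labels do not say whether libraries come from separate animals, so p-values measure the spread between these libraries. A shared title number was read as the same animal, although the labels do not say what it names. Across genes, bulk 1 minus bulk 2 correlated with GFP 1 minus GFP 2 (r = 0.516, Pearson; genes are not independent replicates). The block fit has 1 residual degree of freedom. GFP 3 shares its title number with no bulk library, so only replicates 1 and 2 inform the group difference in that fit. With so few degrees of freedom, its small p-values lean on spread pooled over genes. No libraries were duplicates of each other (chi-square of 133 to 407 per degree of freedom).

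On simulated data (17901 genes) the test recovered 16.7% of genes changed 2-fold, 62% at 4-fold, 90% at 8-fold and 98.0% at 32-fold, and called 0.0508% of unchanged genes. Motifs, of which 7 were searched, and the 250-base window were chosen after member values were known. The length and GC offset (loess, span 0.3) was re-centred after its output was seen, so that TMM scaling was kept. DESeq2 1.42.0 and limma 3.58.1 served as alternatives.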

Additional observations from a re-analysis of the deposited data

How the results depend on the processing

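Besides the design described, 17 alternatives were run. They used limma-voom or the DESeq2 Wald test, other scaling (upper quartile, DESeq2 size factors, or library size alone), no filter or a minimum of 1 CPM in 2 libraries, a 1.5-fold null, robust dispersion, a replicate block, a length and GC trend, both together, and each library left out. The number of members called lower was 19, with 31 of 47 without the filter (1660 of 32815 genes), 25 with the DESeq2 Wald test, 17 with limma-voom, 17 against a 1.5-fold null, 15 of 22 with the 1 CPM minimum, 19 or 20 under other scaling, robust dispersion or the trend, and 10 to 23 when a library was left out. Of all 18583 genes, 955 were lower in the main fit, 1310 with the DESeq2 Wald test, 989 with limma-voom and 732 against the 1.5-fold null. Other scaling or robust dispersion gave 950 to 1059, and the 1 CPM minimum 674 of 13161. Leaving out a GFP library gave 748 of 18095 (GFP 1), 715 of 18380 (GFP 2) and 1109 of 17834 (GFP 3). The number of members called higher was 0, and 1 (Sprr2a3) with the replicate block and with block and trend together. The block moved the lower calls among members to 27 (3652 of 18583 genes). The Sprr1 total, 0.01 on the log2 scale and never called, changed sign with upper quartile scaling (-0.0041), library size alone (-0.13), limma-voom (-0.021), no filter (-0.00073), the 1 CPM minimum (-0.028), the trend (-0.18) and block with trend (-0.059), and ran from -0.16 to 0.20 when a library was left out. Sprr1a, never called either, changed sign with upper quartile scaling (-0.0093), library size alone (-0.14), limma-voom (-0.028), no filter (-0.0048), the 1 CPM minimum (-0.032), the trend (-0.17) and block with trend (-0.037). Block with trend also gave -0.20 for Sprr1b and -0.22 for Sprr4. Leaving out a library gave ranges of -0.18 to 0.21 for Sprr1a, -0.38 to 0.98 for Sprr1b, -0.16 to 0.92 for Sprr4 and -0.91 to 0.20 for Sprr2f. Against a 1.5-fold null the Sprr2 total (-1.39) did not pass. It did not pass without bulk 1, GFP 1 or GFP 2 either (range -1.68 to -1.04), nor did the Lce3 total without bulk 1 or bulk 2 (range -3.41 to -2.70). The causes were not tested. Of the single-member values under alternatives, 461 kept direction and side of the threshold, 45 passed newly, 26 no longer passed and 16 changed sign. The 18 members below the filter were not tested.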
